A study of Homo sapiens with 13 samples.

Results

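The genes described here encode the nuclear subunits of the oxidative phosphorylation system, and they were examined for peaks of PTBP1 and RUNX1 on chromatin. They were chosen by symbol from the GENCODE version 44 protein-coding genes (NDUFA, NDUFB, NDUFC, NDUFS and NDUFV genes, SDHA to SDHD, CYC1, the UQCR genes, 11 COX genes and 15 ATP5 genes), which gave 76 of 20033 genes. No peak value entered this symbol rule, although it was chosen with earlier results of these data known. The peaks came from MOLM-13, a human cell line established from acute myeloid leukemia, for which the labels name no treatment. CUT&Tag, where a transposase is brought to the bound protein by an antibody, was performed for PTBP1 and RUNX1 with 2 biological replicates each and for IgG with 1 library, and CUT&RUN, where a nuclease is brought there instead, was performed for PTBP1, RUNX1, H3K27me3 and IgG with 2 replicates each. The 13 libraries enter here only through 1 PTBP1 list of 9370 peaks and 1 RUNX1 list of 7688 peaks, which were taken as the CUT&Tag lists. Neither list separates replicates, so no spread between replicates could be given and no test was made. All intervals are exact 95% Poisson intervals on the fragments at a summit and cover counting error only. Peak lists hold no expression values, so the identity of the cell line was not checked against marker genes.

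Oxidative phosphorylation takes place at the inner mitochondrial membrane. Complexes I to IV pass electrons from NADH and succinate to oxygen and, at complexes I, III and IV, pump protons, and complex V, the ATP synthase, uses the proton gradient to make ATP. Most subunits are encoded in the nucleus and the rest in mitochondrial DNA, so the nuclear genes must be expressed in proportion to each other and to the mitochondrial ones, and the factors NRF1, GABP (an ETS protein), YY1 and SP1 are known to bind many of their promoters. PTBP1 is an RNA-binding protein that regulates splicing, and RUNX1 is a hematopoietic transcription factor.

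To show what lies at these promoters, reference sequence just upstream of the transcription start site (TSS) is given for the members with the highest fold enrichment and for 2 members without any peak. Fold enrichment is the fragment pileup at a peak summit divided by the background, each with 1 added, as the authors' peak caller gave it. Each stretch was read from hg38, lies outside every annotated exon, ends at the base before the TSS and is written 5′ to 3′ on the strand of the gene. Capitals mark the motifs searched, on either strand, namely GCATGCGC for NRF1, CCGGAAGT for ETS proteins, AAGATGGC for YY1, GGGCGG for SP1, CCAAT for NFY, TATAAA for the TATA box, and TGTGGT or TGCGGT for RUNX.

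The 3 members with the highest PTBP1 fold enrichment were NDUFA11 (chr19:5904007-5904206, minus strand), ATP5MC1 (chr17:48892678-48892764, plus strand) and ATP5PD (chr17:75046986-75047183, minus strand). NDUFA11 encodes an accessory subunit of complex I, ATP5MC1 a source of the c subunit that forms the rotor ring of the ATP synthase, and ATP5PD its d subunit in the peripheral stalk. The letters in capitals are a RUNX motif and 2 SP1 motifs in NDUFA11, 2 NFY motifs in ATP5MC1, and SP1, ETS and NFY motifs, in that order, in ATP5PD.
NDUFA11: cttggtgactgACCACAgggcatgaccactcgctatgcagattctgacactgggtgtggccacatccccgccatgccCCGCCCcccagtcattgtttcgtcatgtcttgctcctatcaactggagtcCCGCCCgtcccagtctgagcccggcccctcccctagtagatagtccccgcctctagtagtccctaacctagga
ATP5MC1: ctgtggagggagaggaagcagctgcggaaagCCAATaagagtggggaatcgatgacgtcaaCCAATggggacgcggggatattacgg
ATP5PD: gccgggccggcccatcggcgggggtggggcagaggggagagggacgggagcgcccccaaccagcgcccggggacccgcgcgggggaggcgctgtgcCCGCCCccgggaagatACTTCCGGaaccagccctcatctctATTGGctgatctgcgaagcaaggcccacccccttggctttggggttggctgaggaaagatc

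By RUNX1 fold enrichment the highest member was again NDUFA11, followed by ATP5F1B (chr12:56645985-56646184, minus strand), which encodes the catalytic β subunit of the ATP synthase, and NDUFA2 (chr5:140647772-140647828, minus strand), an accessory complex I subunit. ATP5F1B held 3 NFY motifs and a RUNX motif 19 bases before its TSS, while the short NDUFA2 stretch, which is cut short by an annotated exon, held none of the motifs.
ATP5F1B: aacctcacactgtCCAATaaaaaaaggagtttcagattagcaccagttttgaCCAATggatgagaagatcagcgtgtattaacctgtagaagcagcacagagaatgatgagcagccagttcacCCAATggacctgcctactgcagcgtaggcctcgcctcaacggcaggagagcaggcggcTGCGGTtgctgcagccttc
NDUFA2: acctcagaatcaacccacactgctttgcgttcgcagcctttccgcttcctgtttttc

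ATP5F1C (chr10:7787994-7788146, plus strand), for the γ subunit, and ATP5MC3 (chr2:175181711-175181910, minus strand), another c subunit gene, are the first members in alphabetical order with no peak of either list in the gene or within 1000 bases of the TSS. The former held an SP1 motif and the latter an NFY motif.
ATP5F1C: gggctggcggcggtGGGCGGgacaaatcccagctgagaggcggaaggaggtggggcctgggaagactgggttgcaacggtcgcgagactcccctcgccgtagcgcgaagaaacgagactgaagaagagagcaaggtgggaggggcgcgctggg
ATP5MC3: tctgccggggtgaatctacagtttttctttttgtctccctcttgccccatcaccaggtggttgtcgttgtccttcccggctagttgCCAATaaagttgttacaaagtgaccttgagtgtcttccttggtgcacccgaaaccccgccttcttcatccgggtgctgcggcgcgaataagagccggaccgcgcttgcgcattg

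A PTBP1 peak lay within 1000 bases of the TSS of 38 of the 76 members, or 50%. The same was true of 26.4% of all protein-coding genes. For RUNX1 the count was 18 members, or 23.7%, beside 21.3% of all protein-coding genes. Both peaks were present at 17 members (22.4%, beside 17.3% of all genes), a PTBP1 peak alone at 21 (27.6%, beside 9.05%), a RUNX1 peak alone at 1 (1.32%, beside 3.98%) and neither at 37 (48.7%, beside 69.7%). The members' PTBP1 share was thus above the background by 23.6 percentage points and their RUNX1 share by 2.39. Of the 38 members with a PTBP1 peak, 44.7% also had a RUNX1 peak, whereas 65.7% of all genes with a PTBP1 peak did. Of the 18 members with a RUNX1 peak, 94.4% had a PTBP1 peak, beside 81.3% of all genes with a RUNX1 peak.

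**Figure D1:**
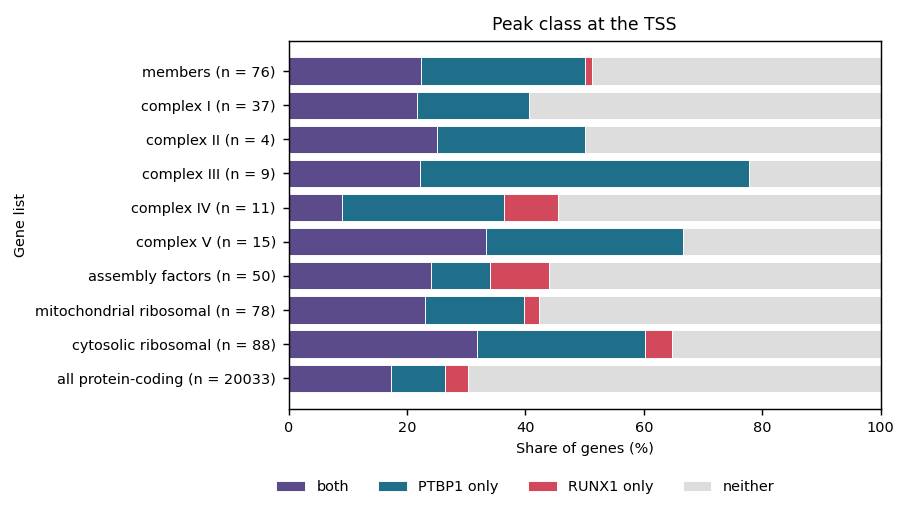
Share of genes in percent (horizontal axis) with both peaks, a PTBP1 peak only, a RUNX1 peak only or neither within 1000 bases of the TSS, for the 76 members, each respiratory complex, 3 other gene lists and all 20033 protein-coding genes. The PTBP1-only segment takes 27.6% of the members and 9.05% of all genes.

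The complexes differed in how many of their genes had a PTBP1 peak. In complex III the peak was found at 7 of 9 genes (77.8%), in complex V at 10 of 15 (66.7%), in complex II at 2 of 4 (50%), in complex I at 15 of 37 (40.5%) and in complex IV at 4 of 11 (36.4%). RUNX1 shares lay closer together, from 18.2% in complex IV (2 of 11) through 21.6% in complex I (8 of 37), 22.2% in complex III (2 of 9) and 25% in complex II (1 of 4) to 33.3% in complex V (5 of 15). With 4 to 37 genes in a complex, a single gene moves these shares by several percentage points, and the differences between complexes were not tested. NDUFA4 was counted with complex I by its symbol, although its protein is now assigned to complex IV, and COX7A2L, counted with complex IV, is a factor of respiratory supercomplexes.

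Complex I, which oxidizes NADH, had both peaks at NDUFA11, NDUFA2, NDUFA4, NDUFB11, NDUFS6, NDUFS7, NDUFS8 and NDUFV3. A PTBP1 peak alone was present at NDUFA6, NDUFA7, NDUFA10, NDUFA13, NDUFB1, NDUFB10 and NDUFV2. Neither was present at NDUFA1, NDUFA3, NDUFA5, NDUFA8, NDUFA9, NDUFA12, NDUFB2 to NDUFB9, NDUFC1, NDUFC2, NDUFS1, NDUFS3, NDUFS4, NDUFS5 and NDUFV1. Among the core subunits of the matrix arm, through which electrons pass from NADH to ubiquinone, NDUFS7, NDUFS8 and NDUFV2 had a PTBP1 peak, and NDUFS1, NDUFS3 and NDUFV1 had none at the TSS.

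NDUFA11 stood highest in both lists. Its PTBP1 peak (chr19:5903467-5905196) had a fold enrichment of 218 (interval 197 to 241) from 374 fragments at the summit. It ranked above 99.9% of the PTBP1 peaks at protein-coding start sites. Its RUNX1 peak (chr19:5903677-5904917) had a fold enrichment of 91.0 (interval 75.6 to 109) from 120 fragments. The summits lay 425 and 433 bases upstream of the NDUFA11 TSS, 8 bases apart. The start of VMAC, on the opposite strand, lies in the same window, so the peaks cannot be assigned to either gene by position. NDUFS7, an iron-sulfur subunit, had the next highest PTBP1 value among complex I genes at 30.8 (interval 23.2 to 40.2), with a RUNX1 value of 11.3 (interval 6.51 to 18.4). NDUFA2 had the next highest RUNX1 value at 34.6 (interval 25.4 to 46.0), with a PTBP1 value of 13.4 (interval 8.596 to 19.9) and both summits on the same base. Because the usual background was 0.720 fragments for PTBP1 but 0.330 for RUNX1, a fold enrichment was compared only within its own list. Of the complex I genes with PTBP1 alone, NDUFA6 (chr22:42090145-42091140) had the highest value, 30.2 (interval 22.7 to 39.6), with a summit in the UTR of exon 1, and NDUFB10 had 20.3 (interval 14.3 to 28.2). The lowest complex I values were 8.14 at NDUFA10 and NDUFB1, each from 13 fragments.

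Complex II, succinate dehydrogenase, has 4 members here, all encoded in the nucleus. SDHA, the flavoprotein, had a PTBP1 fold enrichment of 17.6 (interval 14.6 to 21.0) from 121 fragments and a RUNX1 fold enrichment of 8.61 (interval 5.93 to 12.1) from 31 fragments. Both SDHA peaks stood on a local background more than 1.5 times the usual value of their list. SDHB, the iron-sulfur subunit, had only a PTBP1 peak, at 14.0 (interval 9.06 to 20.6), with its summit 88 bases upstream of the TSS. SDHC and SDHD, the membrane anchors, had neither, and their nearest peaks lay 75341 and 61423 bases from the TSS.

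Complex III, which passes electrons from ubiquinol to cytochrome c, had both peaks at UQCRH and CYC1, a PTBP1 peak alone at UQCRC2, UQCRQ, UQCR10, UQCR11 and UQCRB, and neither at UQCRC1 and UQCRFS1. UQCRH, the hinge protein, had the highest values of the complex for PTBP1, at 19.8 (interval 13.8 to 27.5), and for RUNX1, at 14.3 (interval 8.77 to 22.1). Both UQCRH summits were nearer to the start of LRRC41 on the opposite strand. UQCRC2, a core protein, followed for PTBP1 at 16.9 (interval 11.4 to 24.1). CYC1, cytochrome c1, had a RUNX1 fold enrichment of 7.53 (interval 5.05 to 10.8) and a PTBP1 fold enrichment of 7.93 (interval 5.996 to 10.3), both on a raised background. The Rieske iron-sulfur gene UQCRFS1 had no peak in the gene, and its nearest lay 598615 bases away.

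Complex IV, cytochrome c oxidase, had both peaks at COX5A alone, a PTBP1 peak alone at COX4I1, COX6B1 and COX8A, a RUNX1 peak alone at COX5B, and neither at COX6A1, COX6C, COX7A2, COX7A2L, COX7B and COX7C. COX8A (chr11:63974296-63975022) had the highest PTBP1 value, 27.3 (interval 20.2 to 36.3), with the summit 200 bases upstream. COX4I1 followed at 13.4 (interval 8.596 to 19.9), but its summit lay 975 bases into the gene and nearer to the start of EMC8. The same peak covered the canonical start of COX4I1, 1062 bases inside the gene, so it cannot be assigned to either gene by position. At COX5A the lists were far apart in rank. Its PTBP1 value of 5.48 (interval 3.90 to 7.50) was the lowest of all members and above 1.27% of PTBP1 peaks at protein-coding start sites. Its RUNX1 value of 16.9 (interval 13.1 to 21.6), the highest of the complex, was above 56.6% of RUNX1 peaks at such sites. Both COX5A peaks stood on a raised background. COX5B (chr2:97645534-97645985), the only member with a RUNX1 peak alone, had a value of 10.5 (interval 5.96 to 17.5) from 13 fragments.

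Complex V had both peaks at ATP5F1B, ATP5F1E, ATP5MC1, ATP5PD and ATP5PF, a PTBP1 peak alone at ATP5F1D, ATP5MC2, ATP5ME, ATP5MF and ATP5PB, and neither at ATP5F1A, ATP5F1C, ATP5MC3, ATP5MG and ATP5PO. ATP5MC1 (chr17:48892072-48893342) had a PTBP1 value of 64.5 (interval 53.1 to 77.7) and a RUNX1 value of 29.3 (interval 21.0 to 40.0), with both summits on the base 186 upstream of the TSS. ATP5PD had a PTBP1 value of 36.0 (interval 27.7 to 46.1) and a RUNX1 value of 32.3 (interval 23.5 to 43.4), again with shared summits. ATP5F1B (chr12:56645491-56646409) had the highest RUNX1 value of the complex, 48.1 (interval 37.2 to 61.4), beside a PTBP1 value of 33.7 (interval 25.7 to 43.5). The 3 genes for the identical mature c subunit differed: ATP5MC1 had both peaks, ATP5MC2 a PTBP1 peak of 25.6 (interval 18.7 to 34.3), and ATP5MC3 none. At its canonical start ATP5MC2 had a RUNX1 peak as well, and so both. ATP5F1D, for the δ subunit, had a PTBP1 value of 22.7 (interval 16.2 to 30.9) from a peak that spans the TSS with its summit 1474 bases upstream, and ATP5ME, for the e subunit, had 20.9 (interval 14.8 to 28.9). Among the genes for the F1 part, ATP5F1B (β) and ATP5F1E (ε) had both peaks at the TSS and ATP5F1D (δ) a PTBP1 peak alone. ATP5F1A (α) and ATP5F1C (γ) had neither.

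**Figure D2:**
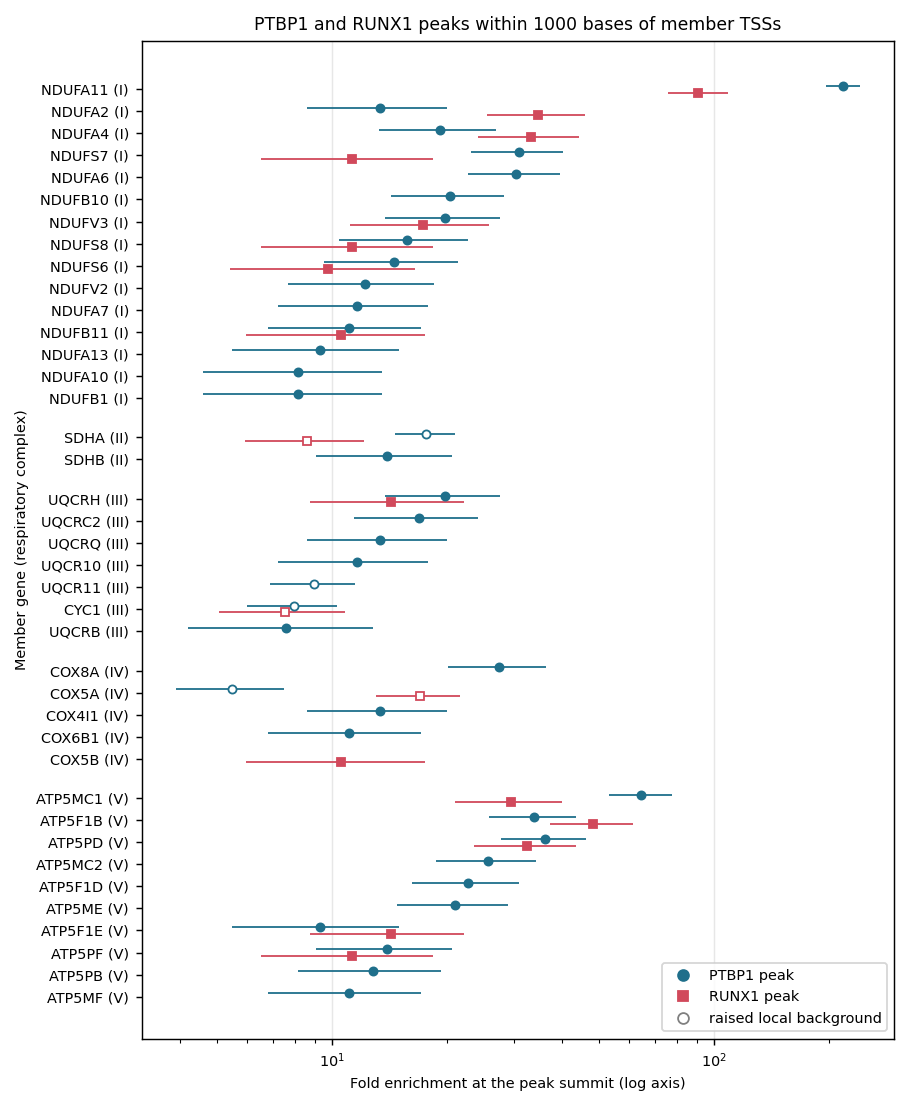
Fold enrichment at the summit (log axis) of the strongest PTBP1 peak (circles) and RUNX1 peak (squares) within 1000 bases of the TSS, for the 39 members with at least 1 such peak, ordered by complex. Bars are exact 95% Poisson intervals on the fragments, open symbols stand on a raised background, and NDUFA11 lies farthest right for both targets at 218 and 91.0.

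Peaks at members had fold enrichments near those of promoter peaks in general. The median PTBP1 fold enrichment was 14.0 over the 38 members and 15.7 over all protein-coding genes with a peak, and 16 of the 38 members lay above that latter median. For RUNX1 the medians were 14.3 over the 18 members and 15.8 over all genes, with 8 members above. Members with both peaks had a median PTBP1 value of 17.6 (all genes with both, 19.2), and those with PTBP1 alone had 12.8 (all such genes, 11.6). The median pileup was 27 fragments at PTBP1 peaks of members (12 to 374) and 24.5 at RUNX1 peaks (12 to 120). A raised background was found at 4 of the 38 PTBP1 peaks (SDHA, CYC1, UQCR11 and COX5A) and 3 of the 18 RUNX1 peaks (SDHA, CYC1 and COX5A). In the whole lists it was found at 455 of 9370 PTBP1 and 395 of 7688 RUNX1 peaks. At these members it was 5.93 fragments for PTBP1 (usual value 0.720) and 2.72 for RUNX1 (usual value 0.330). Without peaks of this kind, 34 members kept a PTBP1 peak and 15 a RUNX1 peak, and the RUNX1 share of members, 19.7%, was then below that of all genes, 20.1%.

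Summits lay close to the start sites. They were within 200 bases of the TSS at 68.4% of members with a PTBP1 peak and 77.8% of members with a RUNX1 peak, beside 54.2% and 51.7% over all genes with a peak. Of the PTBP1 summits, 20 were upstream and 18 downstream (47.4% downstream, beside 47.5% over all genes with a peak). Of the RUNX1 summits, 7 were upstream and 11 downstream (61.1% downstream, beside 50.9%). The TSS base itself was covered by a PTBP1 peak at 29 members (38.2%, beside 19.9% of all genes). It was covered by a RUNX1 peak at 15 (19.7%, beside 15.5%). At the 17 members with both, the peaks overlapped in all 17, and the summits were 0 to 287 bases apart with a median of 13 bases. Within these 17 genes the fold enrichments of the lists had a Spearman correlation of 0.53, which is a description across genes that are no independent replicates, and over all 3469 genes with both peaks it was 0.56.

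**Figure D3:**
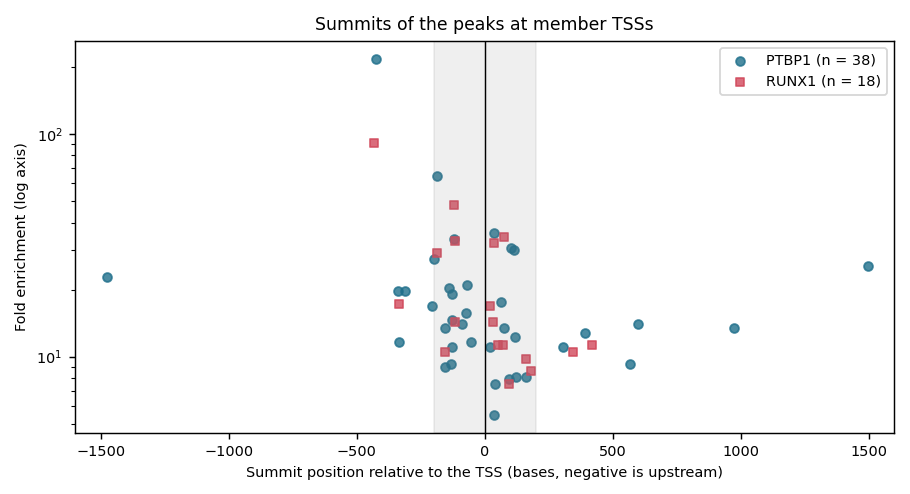
Position of the summit relative to the TSS in bases (horizontal axis, negative is upstream) and fold enrichment (vertical log axis) for the 38 PTBP1 and 18 RUNX1 peaks at member start sites. The grey band covers 200 bases either side and holds 68.4% of the PTBP1 and 77.8% of the RUNX1 summits.

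Many members share their promoter region with another gene. For 29 of the 76 (38.2%) the start of another protein-coding gene lay on the opposite strand within 1000 bases, while this held for 13.4% of all protein-coding genes. A peak in such a region cannot be assigned to either gene by position. Of the 17 members with both peaks, 7 were of this kind, namely NDUFA11 (with VMAC), NDUFA2 (IK), NDUFB11 (RBM10), NDUFS6 (MRPL36), NDUFV3 (WDR4), SDHA (CCDC127) and UQCRH (LRRC41). This is near the 29 of 76 among members in general. Over all protein-coding genes, 949 of the 3469 with both peaks had an opposite coding start. Over the 38 PTBP1 peaks the summit was nearest to the member's own TSS in 27, and over the 18 RUNX1 peaks in 14. These were not counted over all genes, so whether they are high or low for promoter peaks is not known. Among genes with an opposite start, 51.7% of members had a PTBP1 peak and so did 51.6% of all genes. Among genes without such a start, the shares were 48.9% of members and 22.5% of all genes. RUNX1 shares of members were 24.1% with and 23.4% without an opposite start, beside 40.4% and 18.3% of all genes. The PTBP1 share of members was thus 26.5 percentage points above that of all genes without an opposite start (23 of 47 members) and 0.138 points above it with one (15 of 29), and whether these differ was not tested.

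The promoters of members, taken from 250 bases before to 50 after the TSS, were CpG-rich (GC content of at least 55% and an observed to expected CpG ratio of at least 0.6) in 48 of 76 genes (63.2%), beside 51.0% of all genes. Within CpG-rich promoters a PTBP1 peak was present at 27 of 48 members (56.3%) and 39.5% of all genes, a difference of 16.8 percentage points. RUNX1 peaks went the other way, at 13 of 48 members (27.1%) and 32.0% of all genes, as did both peaks together, at 25% and 26.4%. The small excess of RUNX1 over the background thus reversed within CpG-rich promoters. These remained unlike in composition, with a median GC content of 61.8% in the members and 68% in all genes.

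**Figure D4:**
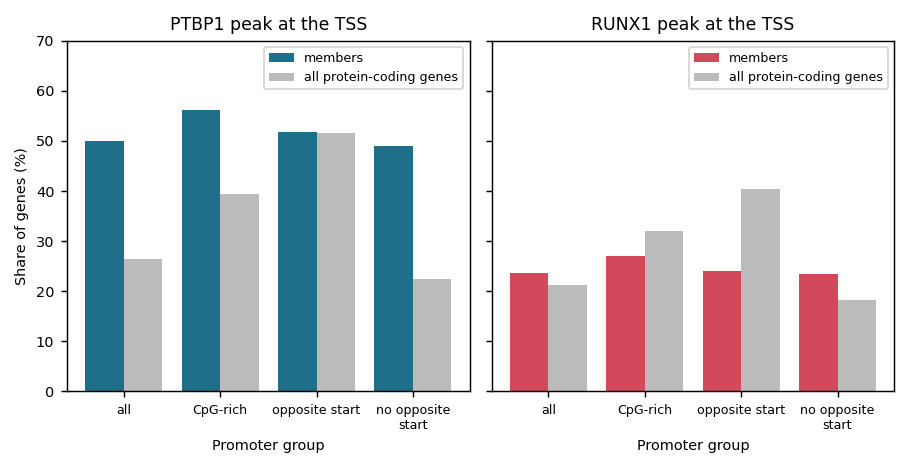
Share of genes in percent (vertical axis) with a PTBP1 peak (left) or a RUNX1 peak (right) at the TSS, for members (colored bars) and all protein-coding genes (grey bars), over all promoters, CpG-rich promoters, and promoters with or without an opposite protein-coding start within 1000 bases. For PTBP1 the bars are level only with an opposite start (51.7% and 51.6%), and for RUNX1 the members' bar is the lower in 2 of the 4 groups.

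Motifs of NRF1, ETS proteins and YY1 were found at larger shares of members than of all genes. For the SP1 motif this depended on the window. The NRF1 motif was found in 13 member promoters (17.1%, beside 3.78% of all promoters of the same length), the ETS motif in 9 (11.8%, beside 5.10%) and the YY1 motif in 7 (9.21%, beside 3.03%). Over all CpG-rich promoters these shares were 5.98%, 8.18% and 4.07%, and that of SP1 was 80.7%. Members with a CpG-rich promoter were not counted apart for motifs. The SP1 motif was found in 53.9% of members and 52.4% of all promoters, and by class in 58.8% of members with both peaks (all such genes, 72.6%) and 45.9% of members with neither (44.2%). Within 500 bases either side of the TSS it was found in 81.6% of members and 72.0% of all genes. The TATA box was found in 13.2% of members and 10.8% of all promoters, but at canonical starts in 6.58% and 9.71%. Of the 13 members with the NRF1 motif, 5 had a PTBP1 peak (SDHB, ATP5ME, NDUFA6, NDUFS6 and NDUFV3) and 7 had neither peak, among them ATP5F1C and SDHD. The PTBP1 share of these 13, 38.5%, is set beside 41.3% of all genes with the motif. The NFY motif was less frequent at members (27.6%) than at all genes (35.9%), but not within 500 bases either side of the TSS (65.8% and 65.7%). Among the members, in the shorter window, it was present at 7 of 17 with both peaks (41.2%), 8 of 21 with PTBP1 alone (38.1%) and 6 of 37 with neither (16.2%), while over all genes these shares were 42.4%, 37.0% and 34.6%. No motif contains another, although neighboring matches can share letters. Matches were exact, on either strand, and say nothing about which factor was bound.

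**Figure D5:**
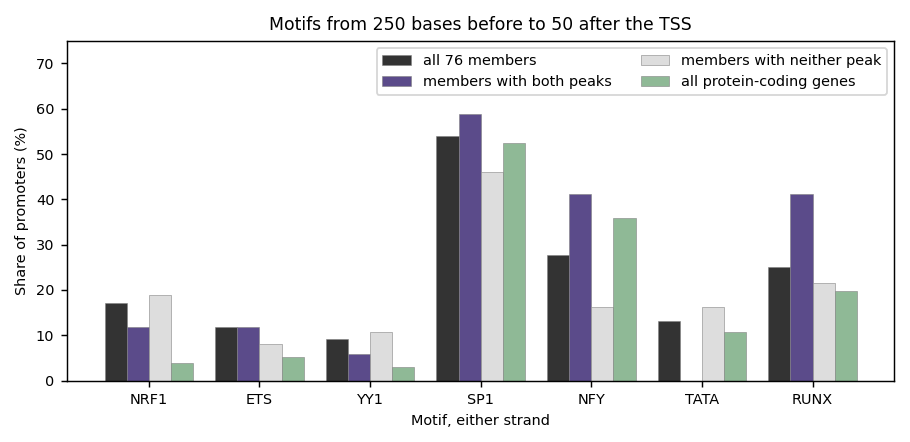
Share of promoters in percent (vertical axis) that hold each motif on either strand, for all 76 members, the 17 with both peaks, the 37 with neither and all protein-coding genes. The NRF1 bar of members stands at 17.1% beside 3.78% of all genes, and the NFY bar at 41.2% with both peaks and 16.2% with neither.

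RUNX motifs were present in 19 member promoters (25%, beside 19.8% of all promoters), and in 7 of the 17 with both peaks (41.2%, beside 21.2% of all genes with both), namely NDUFA2, NDUFA11, NDUFS8, SDHA, UQCRH, ATP5F1B and ATP5F1E. They were seldom at the summit itself. Within 50 bases of the summit a RUNX motif was found at 1 of 18 RUNX1 peaks of members (5.56%, ATP5F1E), beside 13.0% of all RUNX1 peaks at protein-coding start sites. The same letters were found near 3 of 38 PTBP1 summits of members (7.89%, ATP5PB, NDUFA10 and UQCR10), beside 6.90% of all PTBP1 peaks at such sites.

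Peaks elsewhere in the gene body were few. A PTBP1 peak that overlapped the gene but not the TSS window was found at 10 members (13.2%, beside 12.4% of all genes), with 12 peaks in all, and a RUNX1 peak of this kind at 5 members (6.58%, beside 11.5% of all genes). Members are short, with a median gene length of 12604 bases, while the median over all protein-coding genes was 27471 bases. NDUFS7 held 3 of the PTBP1 peaks, with values of 8.14 to 10.5. ATP5F1D had a PTBP1 peak of 19.2 (interval 13.3 to 26.8) with its summit in the UTR of exon 4, and a RUNX1 peak of 10.5 (interval 5.96 to 17.5) whose summit lay past the canonical transcript. NDUFA2 had a PTBP1 peak of 12.8 (interval 8.14 to 19.2) nearest to the start of TMCO6, and NDUFB10 had 1 in its intron 1 at 8.14.

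Several of the remaining gene-body peaks lay at the start of the canonical transcript, which differs from the 5′ end of the annotated gene in 57 members and by more than 1000 bases in 11. COX7A2L (chr2:42361213-42361629) had the highest gene-body value, 24.4 (interval 17.7 to 32.9) for PTBP1, beside 15.0 (interval 9.35 to 23.1) for RUNX1. Its canonical start, 63871 bases inside the gene, was covered by both peaks. ATP5F1A had a PTBP1 peak of 9.30 (interval 5.46 to 15.0) and COX7A2 one of 11.05 (interval 6.78 to 17.1), and each covered the canonical start. At NDUFB2 a PTBP1 peak of 9.30 (interval 5.46 to 15.0) began 110 bases downstream of the canonical start. With canonical starts PTBP1 peaks were gained at 5 members and lost at NDUFV3, which gave 42 of 76 (55.3%, beside 27.5% of all genes), and RUNX1 peaks numbered 20 (26.3%, beside 22.4%).

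The window of 1000 bases cut close to a few members. The PTBP1 peak of ATP5MC2 began 916 bases from its TSS and was counted, while its RUNX1 peak (12.03, interval 7.06 to 19.4) began 1044 bases away and was counted in the gene body. At NDUFC1 a PTBP1 peak (11.05, interval 6.78 to 17.1) began 1088 bases and a RUNX1 peak (7.52, interval 3.85 to 13.6) 1154 bases away, both nearest to the start of NAA15. Of the 37 members with neither peak at the TSS, 31 had none in the gene, and the median distance from the TSS to the nearest peak of either list was 61423 bases.

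The members were spread over 22 chromosomes, with the largest number, 10, on chromosome 19. There 7 of 10 had a PTBP1 peak, beside 37.3% of all protein-coding genes on that chromosome, and 2 had a RUNX1 peak, beside 24.5%.

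Other genes of mitochondrial and ribosomal function were counted in the same way. The 78 mitochondrial ribosomal protein genes, which translate the mitochondrially encoded subunits, had a PTBP1 peak in 39.7% and a RUNX1 peak in 25.6%, and PTBP1 alone in 16.7%. The 88 cytosolic ribosomal protein genes had 60.2%, 36.4% and 28.4%, so a PTBP1 share as high as that of the members was also found there. The 50 assembly factors, which build the complexes without staying in them, had PTBP1 and RUNX1 peaks in 34.0% each and PTBP1 alone in 10.0%. The highest of these were NDUFAF8, with a PTBP1 value of 117 and a RUNX1 value of 16.5, and COX20, with 66.3 and 60.2. Of 20 tricarboxylic acid cycle and pyruvate genes, 45% had PTBP1, 50% RUNX1 and 40% both. Of 17 regulators of nuclear and mitochondrial respiratory genes, 58.8% had PTBP1 and 64.7% RUNX1, among them ESRRA (73.8 for PTBP1, 36.8 for RUNX1) and YY1 (37.8 and 32.3), whereas NRF1 had neither. GABPA, for the DNA-binding subunit of GABP, lies beside ATP5PF, and the same peaks (14.0 and 11.3) were counted for both genes. The 13 subunit and paralog genes outside the symbol rule, several of them tissue-specific forms, had PTBP1 in 23.1% and RUNX1 in 15.4%, with cytochrome c, CYCS, at 26.7 for PTBP1 alone. Differences between these lists and the members were not tested.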

How the data were processed

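PTBP1 and RUNX1 peak lists from MOLM-13 were analysed. Per the labels and the study's methods, the authors mapped read pairs to hg38 (Bowtie2), filtered and deduplicated them, and called peaks with MACS3. The submitters' processing notes also name bedtools 2.30.0. Which assay and replicates entered a list, and whether an IgG control was used, are not given in the sources used here. The deposited values were the fold enrichment (a ratio), the −log10 p-value and −log10 q-value, a score derived from the q-value, and the summit offset. The lowest deposited −log10 q-value was 7.04 for PTBP1 and 7.24 for RUNX1. Fragment totals were not used, so depth enters only through the summit pileup (medians 21 for PTBP1 and 20 for RUNX1) and the background (usual values 0.720 and 0.330).

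The members and lists were chosen with earlier results of these data known. The fold enrichment and −log10 p-value were solved for a whole pileup and a background (largest difference 0.00134), and a background above 1.5 times the usual value was called raised (455 PTBP1 and 395 RUNX1 peaks). The higher usual background of the PTBP1 list (0.720, beside 0.330 for RUNX1) raises the number of fragments a peak must have. The lowest member peaks held 12 fragments for PTBP1 (UQCRB, fold enrichment 7.56) and 9 for RUNX1 (NDUFC1, 7.52). Weaker sites may be absent from either list, and which list misses more was not tested. Genes were protein-coding genes of GENCODE version 44 on chromosomes 1 to 22, X and Y, the TSS was the 5′ end of the gene, and peaks within 1000 bases were counted at the TSS. Peaks overlapping the gene outside that window were counted in the gene body. Where several peaks lay at a TSS, the highest fold enrichment was used. Counts and medians are set beside all protein-coding genes, with no test, since genes are no replicates. Values are given in full for the 2 highest members per target and complex, members with a peak of a single list (at most 6 per list), members with gene-body peaks (at most 10) and complex II. The values of 1 member are not reported here. NDUFB10, the 11th gene-body member by fold, was named after its values were seen. Genes of the other lists were named after their values were seen. Alternatives covered the window, TSS, q-value, background, overlap and comparison genes. The RefSeq TSS, the nearest-start rule and the opposite-start groups were chosen after seeing the data. Window assignment and pileup solving were tested on simulated data. Versions were matplotlib 3.10.9, scipy 1.17.1, pandas 2.3.3, numpy 2.4.6 and Python 3.11.15.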

Additional observations from a re-analysis of the deposited data

How the results depend on the processing

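No paired analysis was possible because the peak lists carry no replicate. Of 84 alternative values for the counts, shares and median fold enrichments, 72 kept their direction and moved by less than the limit set for their kind (1.5 times for counts, a binomial interval for shares, a counting interval for medians). These limits are wide beside the smaller differences. A both-peak difference that fell from 5.05 to 0.0536 percentage points was still among the 72. The PTBP1 count at member start sites ranged from 26 to 42 and stayed above the background share in every setting that had a background, but by 0.138 percentage points among genes with an opposite coding start, in place of 23.6. At a −log10 q-value of at least 20, the counts fell to 10 for RUNX1 and 8 for both, gene-body counts to 3 for PTBP1 and 1 for RUNX1, and the RUNX1 share of members minus that of all genes was -0.29 percentage points, in place of 2.39. The latter difference was also below 0 without raised-background peaks (-0.35), in CpG-rich promoters (-4.87) and with an opposite coding start (-16.3). The difference for both peaks was 5.05, and it was -1.38 in CpG-rich promoters and -11.3 with an opposite coding start, 0.0536 at a −log10 q-value of at least 20 and 1.97 without raised-background peaks. Without an opposite coding start the RUNX1 difference was 5.06. Both summits were nearest to the member's own start in 11 genes, in place of 17, a count not made over all genes. The RefSeq start sites covered 62 members. They gave 33 with PTBP1 (53.2%, beside 28.3% of all genes covered) and 16 with RUNX1 (25.8%, beside 23.3%). The YY1 motif was found in 16 member promoters at canonical starts (21.1%, beside 4.04% of all genes), in place of 7 (9.21%, beside 3.03%). The TATA box was found in 5, in place of 10, which turned its direction against all genes. Causes of these changes were not tested. The lowest member peaks rest on 12 fragments at the TSS and 9 in a gene body, and weaker sites do not pass the q-value threshold of the lists.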
